A study of Mus musculus with 12 samples.

Results

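Primary medulloblastomas of Math1-cre;A1G;Ptch1+/- mice were set against medulloblastomas of Ptch1+/- mice, so that tumours of both groups carried a heterozygous Ptch1 allele, and the groups differed by label in Math1-cre and A1G. The arrays were chosen by their labels: 4 arrays of A1G primary tumours and 4 of Ptch1+/- tumours, here called Ptch1het, which makes 8 of the 12 arrays of the series. The other 4 arrays, from metastatic tumours with the A1G alleles, entered the model only to estimate the spread and are otherwise given as single values. The name Math1-cre places Cre under Math1, another name of the progenitor factor gene Atoh1. The labels do not expand A1G, though the study's design text names ATOH1 as the driver of these tumours, and they give neither age nor sex. They do not say whether replicates are separate animals, so p-values here reflect only how far these samples scatter, which may be technical. The chip on which each array lay is unknown here, so chip and genotype cannot be told apart.

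Sonic hedgehog (SHH) medulloblastoma arises from granule neuron progenitors, the cells that divide on the surface of the developing cerebellum. In these cells SHH binds the receptor PTCH1 and relieves its inhibition of Smoothened, and the GLI factors then switch on target genes that keep the cells dividing. Loss of Ptch1 mimics this signal, while ATOH1, a basic helix-loop-helix transcription factor, keeps granule progenitors immature; progenitors that leave the cycle become granule neurons.

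Of 16724 genes tested, 6 (0.0359%) differed between the genotypes at an adjusted p under 0.05 in limma. The reporter eGFP was the gene higher in A1G primary tumours (1 gene, 0.00598%), and Pou4f1, Hrk, Tbx4, Nat2 and Tmem229a were lower (5 genes, 0.0299%). Before adjustment 2238 genes (13.4%) had a p under 0.05, 1064 of them higher (6.36%) and 1174 lower (7.02%) in A1G primary tumours. The 4 arrays of one genotype all lay above the 4 of the other for 1127 genes (6.74%), 460 higher (2.75%) and 667 lower (3.99%). The median log2 difference of all genes was -0.03. Expression is given throughout as log2 intensity after background correction and quantile normalization, on which scale the median probe of an array reads 7.05. Levels near that value are not resolved from background, and values of different probes are not comparable with each other.

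**Figure D1:**
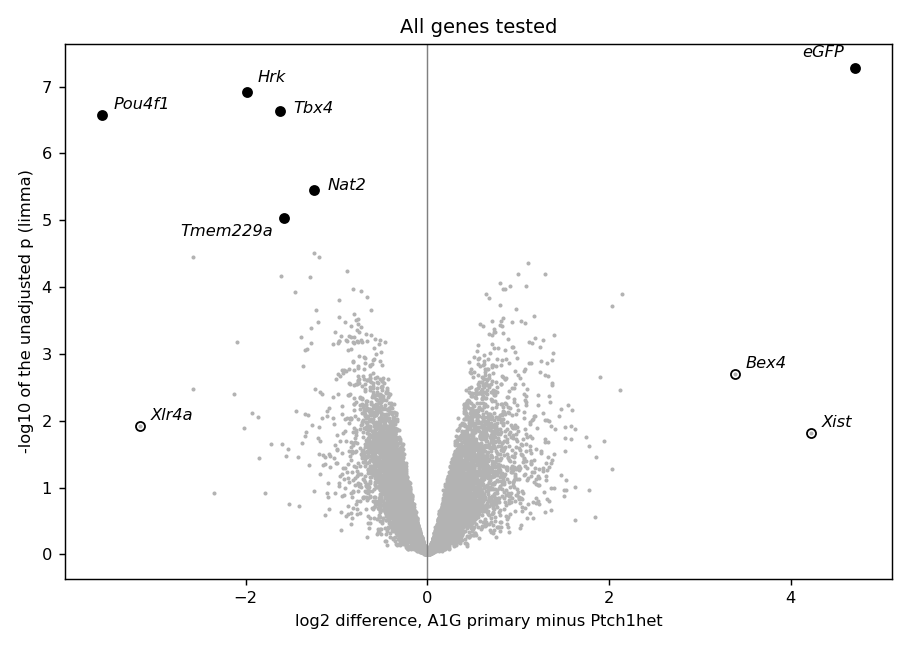
Log2 difference, A1G primary minus Ptch1het, against -log10 of the unadjusted limma p, with one point for each of 16724 genes. Filled points are the 6 genes past an adjusted p of 0.05; the open points Bex4, Xist and Xlr4a have wide differences that did not pass.

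Several arrays stood apart from the rest of their genotype, and the results below are read with them in view. Ptch1het 2 was the farthest array on the first principal component of the 8 arrays, which held 37.4% of the variance, at -53.97, followed by Ptch1het 1 at -36.71. The other arrays lay between -1.27 and 37.56, and Ptch1het 3 and 4, at 3.40 and 14.11, fell among the A1G primary arrays. The sex-linked RNAs also differed in makeup between the groups. Xist, the RNA that silences the inactive X chromosome, read 12.33, 6.40, 13.04 and 11.75 in A1G primary 1 to 4 and 5.88, 6.32, 6.26 and 8.17 in Ptch1het 1 to 4. The Y-linked translation factor gene Eif2s3y read 6.29, 10.62, 6.18 and 6.12 in A1G primary and 11.04, 11.09, 10.62 and 5.84 in Ptch1het tumours. A1G primary 2 was thus the only A1G primary array with high Eif2s3y, and Ptch1het 4 the only Ptch1het array with low Eif2s3y. Fitted with Xist as a covariate, 4 of the 6 genes still passed (eGFP, Hrk, Pou4f1 and Tbx4); without both Ptch1het 1 and 2, 8 genes passed, the same 4 among them. Ptch1het 4 moved the count most: without it 60 genes passed, 38 higher and 22 lower in A1G primary tumours, all 6 among them, and without Ptch1het 2 the count was 10, 3 higher and 7 lower.

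The largest difference was in the reporter. The eGFP probe, which reads a reporter foreign to the mouse, gave 13.08, 11.96, 11.67 and 12.42 in A1G primary tumours against 8.09, 7.69, 7.18 and 7.36 in Ptch1het tumours. Every A1G primary array was far above every Ptch1het array, as was every A1G metastatic array, at 11.47 to 13.51. The mean was 12.28 ± 0.61 in A1G primary and 7.58 ± 0.40 in Ptch1het tumours (SD, n = 4 each), a log2 difference of 4.70 (SE 0.42, adjusted p = 0.000893). Which allele carries the reporter is not stated in the labels. Atoh1 itself had 1 probe, which read below the array median on every one of the 12 arrays (mean 6.03 in A1G primary and 5.98 in Ptch1het tumours) and was not tested. Where this probe lies relative to a transgene is not given, so it checks nothing about the alleles. The single probes of Gli1 and Mycn, an effector and a target of SHH signalling, were likewise below the median on all 12 arrays.

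The largest fall was in Pou4f1, which encodes the POU-domain transcription factor BRN3A of sensory neurons and some brainstem neurons. It read 6.58, 8.13, 6.36 and 7.61 in A1G primary tumours and 10.18, 10.75, 10.98 and 11.09 in Ptch1het tumours. All 4 Ptch1het arrays were high, whereas A1G primary 1 and 3 were below the array median. The mean was 7.17 ± 0.84 in A1G primary and 10.75 ± 0.41 in Ptch1het tumours (SD, n = 4 each), a log2 difference of -3.58 (SE 0.36, adjusted p = 0.0011). The A1G metastatic arrays lay between the groups, at 8.90 to 9.88. A further 2 Pou4f1 probes read between 5.89 and 6.56 on all 8 arrays and did not show the difference.

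Hrk, a BH3-only gene whose product binds BCL2 proteins and promotes apoptosis, fell as well. It read 6.84, 6.72, 6.53 and 6.73 in A1G primary tumours and 8.71, 8.59, 8.30 and 9.17 in Ptch1het tumours. All A1G primary arrays were below the array median, so the fall is a bound, at least 3.13-fold (adjusted p = 0.00103). The A1G metastatic arrays were below it too, so Hrk met the filter only through the 4 Ptch1het arrays. Tbx4, a T-box transcription factor of hindlimb and lung development, read 7.04, 7.24, 7.13 and 7.12 in A1G primary tumours and 9.08, 8.77, 8.72 and 8.43 in Ptch1het tumours. The groups were tight and separate, with a log2 difference of -1.62 (SE 0.16, adjusted p = 0.0011), although its other probe read between 5.82 and 6.76 on all 8 arrays. Of the arrays with the discordant sex-linked RNAs, A1G primary 2 read low and Ptch1het 4 high for Pou4f1, Hrk and Tbx4. These genes were called on the same separation of the groups, so these values say nothing further about sex.

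Nat2 and Tmem229a passed by less. Nat2, an arylamine N-acetyltransferase, read 7.40, 7.26, 7.38 and 7.48 in A1G primary tumours and 8.44, 8.96, 8.64 and 8.46 in Ptch1het tumours, without overlap. Its log2 difference was -1.24 (SE 0.16, adjusted p = 0.0118), but the adjusted p was 0.0671 without A1G primary 2, 0.0564 without A1G primary 3 and 0.0631 without Ptch1het 3. The other Nat2 probe, below the array median at 6.07 to 7.02 on all 8 arrays, differed by 0.32, in the opposite direction. Tmem229a, a gene of a predicted transmembrane protein on chromosome 6, read 7.40, 7.54, 7.19 and 7.12 in A1G primary tumours and 9.33, 9.15, 8.72 and 8.38 in Ptch1het tumours. Its log2 difference of -1.58 (SE 0.22, adjusted p = 0.0257) no longer passed when any single array but Ptch1het 4 was left out (adjusted p 0.0507 to 0.126), nor with the 8 arrays alone (0.0755) or the mean of its probes (0.0785), its second probe differing by -0.11. In A1G primary tumours both genes lay close to the array median, so the size of their falls is not well resolved.

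**Figure D2:**
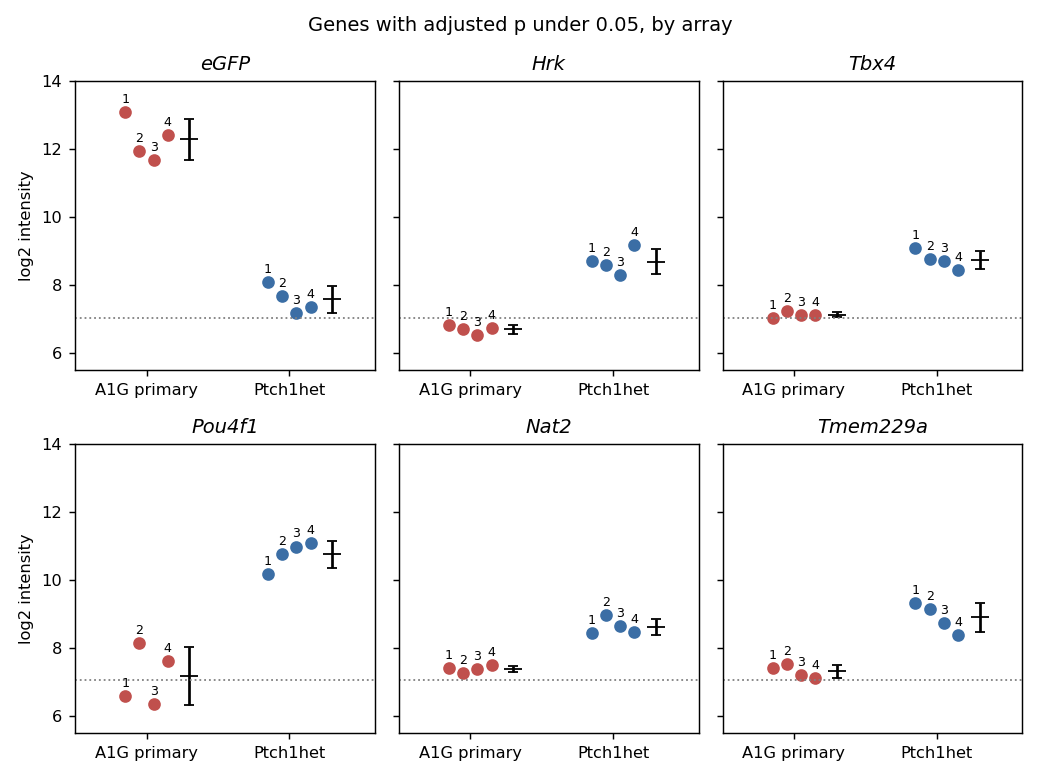
Log2 intensity of the 6 genes past an adjusted p of 0.05 on each of the 4 A1G primary (red) and 4 Ptch1het (blue) arrays, numbered by replicate, with mean and SD in black and the array median (7.05) dotted. No gene shows overlap between the genotypes; Hrk, Tbx4, Nat2 and Tmem229a sit near the array median in A1G primary tumours.

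The proximal promoters of the 3 firmest falls are shown because ATOH1, the named driver, is a basic helix-loop-helix factor and SHH signalling acts through GLI factors, and the letters of both motifs can be looked for in them. RefSeq (GRCm38.p6) held a promoter, 250 bases before to 50 after the start, for 4 of the 5 mouse genes. Capitals mark CAGCTG, an E-box hexamer of the kind bound by basic helix-loop-helix factors, which reads the same on both strands. The Pou4f1 promoter lies at chr14:104467950-104468249 on the minus strand, that of Tbx4 at chr11:85896515-85896814 and that of Hrk at chr5:118169514-118169813, both on the plus strand.
Pou4f1: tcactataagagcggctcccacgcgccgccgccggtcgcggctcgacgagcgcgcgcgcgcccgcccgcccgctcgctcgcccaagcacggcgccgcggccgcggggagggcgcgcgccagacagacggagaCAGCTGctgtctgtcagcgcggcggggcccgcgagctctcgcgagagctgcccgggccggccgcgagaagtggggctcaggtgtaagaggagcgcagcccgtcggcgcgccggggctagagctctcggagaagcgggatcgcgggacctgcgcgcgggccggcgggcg
Tbx4: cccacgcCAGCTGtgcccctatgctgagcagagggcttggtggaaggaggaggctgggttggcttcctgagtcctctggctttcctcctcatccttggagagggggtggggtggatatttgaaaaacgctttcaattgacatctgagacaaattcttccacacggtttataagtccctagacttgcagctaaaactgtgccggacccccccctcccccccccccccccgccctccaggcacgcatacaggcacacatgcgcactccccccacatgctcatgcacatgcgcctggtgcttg
Hrk: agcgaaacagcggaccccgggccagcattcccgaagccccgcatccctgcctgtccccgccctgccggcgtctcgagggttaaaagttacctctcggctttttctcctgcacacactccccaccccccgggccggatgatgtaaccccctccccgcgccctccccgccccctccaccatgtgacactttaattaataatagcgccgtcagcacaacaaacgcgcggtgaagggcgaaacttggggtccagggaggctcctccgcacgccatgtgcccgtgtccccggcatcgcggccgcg
Pou4f1 and Tbx4 each held 1 CAGCTG, at bases 133 to 138 and 8 to 13 of the window, and Hrk and Tmem229a held 0. Of all 32851 promoters of this length 16.3% held the hexamer. The GLI motif GACCACCCA, searched on both strands, occurred in 0 of the 4 windows and in 0.253% of all. These matches describe letters only.

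The next largest differences did not pass the threshold. Bex4, a brain-expressed X-linked gene, read 12.96, 13.14, 12.96 and 12.87 in A1G primary tumours and 7.22, 12.56, 7.85 and 10.76 in Ptch1het tumours. The A1G primary arrays were uniform while Ptch1het 1 and 3 were near background, and the second Bex4 probe gave the same order. Its log2 difference of 3.39 had an adjusted p of 0.184 (0.0228 without Ptch1het 2). Ank1, an ankyrin that anchors membrane proteins to the spectrin skeleton, read 10.02, 10.84, 10.52 and 11.68 in A1G primary tumours and 8.55, 7.65, 9.15 and 9.16 in Ptch1het tumours, a difference of 2.14 (adjusted p = 0.0863). LOC100046690, a transcript without a gene name here, differed by 2.03 (0.108), the C1q-like synaptic protein gene C1ql2 by 1.55 (0.232), the kinase gene Stk32a by 1.41 (0.275) and B930054I22Rik by 1.38 (0.143). All Ptch1het arrays were below the array median for the integrin activator gene Fermt1, at least 2.39-fold higher in A1G primary tumours (adjusted p = 0.293), and for the cation channel gene Trpc1, at least 1.69-fold higher (0.123). For none of these genes did the genotypes overlap; 40 genes were separated by at least 2-fold in this direction.

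In the other direction 27 genes were separated by at least 2-fold. Gpat2, a glycerol-3-phosphate acyltransferase, read 6.94, 6.73, 7.30 and 6.48 in A1G primary tumours and 10.02, 8.43, 9.02 and 10.29 in Ptch1het tumours. It was below the array median on 3 of 4 A1G primary arrays, where its level is not resolved, and the measured difference was -2.58 (adjusted p = 0.0668). It passed without Ptch1het 2, with an adjusted p of 0.0196, and without Ptch1het 4, and over all settings its adjusted p reached 0.517. Itih3, a heavy chain of the inter-alpha-trypsin inhibitor, also differed by -2.58 (0.204), LOC382555 by -2.13 (0.209), the stromelysin gene Mmp3 by -2.10 (0.123) and the glutathione transferase gene Gstp2 by -1.46 (0.0853). Adcyap1 encodes the neuropeptide PACAP, which opposes SHH-driven division of cultured mouse granule progenitors. It read 7.52, 7.20, 7.13 and 7.61 in A1G primary tumours and 9.9997, 8.71, 8.65 and 8.55 in Ptch1het tumours, and 9.31 to 9.79 in A1G metastatic tumours. The A1G primary arrays were the low ones, with a difference of -1.61 (adjusted p = 0.0801). It passed without Ptch1het 1 or without Ptch1het 4, where the lowest adjusted p was 0.0221.

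In the SHH pathway 0 of the 14 tested members of 19 passed, against 0.0359% of all genes. At that share a count of 0 says little about any list of this length. The median log2 difference was 0.05 against -0.03 over all genes. Ptch1, receptor and target of the pathway, read 11.57, 10.79, 11.08 and 10.69 in A1G primary tumours and 11.30, 11.14, 11.01 and 11.33 in Ptch1het tumours. The groups overlapped (difference -0.16, SE 0.30, adjusted p = 0.849). The transducer gene Smo differed by -0.13 (0.844), its inhibitor Sufu by 0.31 (0.527), Gli2 by 0.27 (0.672) and the target and cyclin gene Ccnd1 by -0.03 (0.969). Probes disagreed in direction for several members. The other probe differed by -0.59 for Gli2 and by 0.04 for Ptch1. Further probes differed by 0.12 and -0.38 for Ccnd1 and by 0.20, -0.35 and 0.37 for Sufu. Those of Sfrp1 differed by 0.34 and -0.34. Hhip is a target whose product binds hedgehog ligands and so dampens the signal. Of the 14 members it alone was without overlap, against 6.74% of all genes in either direction. It read 7.94, 7.69, 7.54 and 8.21 in A1G primary tumours and 8.58, 9.02, 8.94 and 8.75 in Ptch1het tumours. The difference of -0.98 (SE 0.18) missed the threshold (adjusted p = 0.0947). Gli3, the main repressor form of the family, read 10.87 in Ptch1het 2 and between 6.42 and 8.57 on the other 7 arrays.

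Granule progenitor factors, which check the labelled tumour type, were high in both genotypes. Sox11 read 14.65 to 15.08 in A1G primary and 14.55 to 15.004 in Ptch1het tumours, Insm1 13.60 to 14.24 and 13.65 to 14.19, and Zic1 13.77 to 14.27 and 13.76 to 14.23. Of 13 tested members of 19, 0 passed, against 0.0359% of all genes (median 0.13, 8 positive). En2, an engrailed homeobox factor of the cerebellum, was the 1 member of 13 without overlap, against 6.74% of all genes in either direction. It read 12.46 to 13.04 in A1G primary and 11.18 to 12.34 in Ptch1het tumours (difference 0.72, adjusted p = 0.288). Barhl1, a homeobox target of ATOH1, differed by 0.49 (0.364) and Hes6, a HES-family factor of early neurons, by -0.66 (0.363). Of 9 tested ATOH1 targets taken from the literature 0 passed, against 0.0359% of all genes, with a median of -0.05.

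Genes of granule neuron differentiation mostly had positive differences, but 0 of them passed, against 0.0359% of all genes. Of 24 tested genes of 30, 22 had a positive difference (91.7%, against 45.4% of all genes), the median was 0.51, and 7 had an unadjusted p under 0.05, all higher (6.36% of all genes). The nuclear factor I genes Nfia and Nfix, transcription factors of maturing granule neurons, did not overlap. They were 2 of the 24, against 2.75% of all genes higher without overlap. Nfia read 13.44, 13.23, 13.70 and 12.95 in A1G primary tumours and 12.87, 12.33, 12.46 and 12.62 in Ptch1het tumours (difference 0.76, SE 0.19, adjusted p = 0.167). Nfix read 13.99, 14.20, 13.92 and 13.91 in A1G primary tumours and 13.53, 13.10, 13.70 and 13.54 in Ptch1het tumours (0.54, SE 0.17, 0.25). Mapt, which encodes the microtubule protein tau, differed by 1.34 (0.259), the synaptic vesicle gene Vamp2 by 0.76 (0.269), and Dcx, the doublecortin gene of migrating neurons, by 0.71 (0.283), all with overlap. Neurod1, a proneural factor of the lineage, differed by -0.15 (0.936).

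These differences were smaller without Ptch1het 1 and 2. Averaged per array and centred over the 8 arrays, the differentiation list stood at -0.27, 0.34, 0.25 and 0.86 in A1G primary 1 to 4 and at -0.46, -1.21, 0.09 and 0.40 in Ptch1het 1 to 4. The low arrays were Ptch1het 2, Ptch1het 1 and A1G primary 1, the high one was A1G primary 4, and the groups overlapped. The difference of the means was 0.59 (SD 0.47 in A1G primary and 0.71 in Ptch1het, n = 4 each). It was 0.29 without Ptch1het 2 and 0.05 without both Ptch1het 1 and 2, where 14 of 24 members were positive (58.3%, against 51.1% of all genes) and the median was 0.17. Single arrays carried individual neuronal genes too: Syt1, a calcium sensor of synaptic vesicles, read 14.07 in A1G primary 4 and 7.95 in Ptch1het 2, against 10.01 to 11.94 on the other 6 arrays.

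Cell cycle genes mostly had negative differences, and again 0 passed, against 0.0359% of all genes. Of 39 tested genes of 43, 4 had a positive difference (10.3%, against 45.4% of all genes), the median was -0.21, and 6 had an unadjusted p under 0.05, all lower (7.02% of all genes). Without both Ptch1het 1 and 2, 11 were positive (28.2%) and the median was -0.10. For 4 genes the groups did not overlap, Ccna2, Pcna, Tpx2 and Ccne2, against 3.99% of all genes lower without overlap. Cyclin A2 (Ccna2), which drives S phase, read 6.95, 7.24, 7.17 and 6.97 in A1G primary tumours and 8.55, 8.15, 7.75 and 7.77 in Ptch1het tumours. The A1G primary arrays lay about the array median, and the difference of -0.97 had an adjusted p of 0.123. Pcna, the sliding clamp of DNA replication, read 9.21, 8.39, 8.91 and 8.65 in A1G primary tumours and 10.01, 9.47, 9.50 and 9.43 in Ptch1het tumours (-0.81, 0.274), and the spindle factor gene Tpx2 differed by -0.69 (0.311). The proliferation marker Mki67 overlapped, at 13.10, 12.61, 13.05 and 12.68 in A1G primary tumours and 13.37, 13.45, 12.74 and 12.75 in Ptch1het tumours (-0.22, adjusted p = 0.673). Of the cycle inhibitors, Cdkn1c differed by -1.15 (0.343), Cdkn2a by -0.99 (0.363) and Cdkn2b by -0.66 (0.392), and Cdkn1b by 0.06 (0.942).

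Averaged per array, the cell cycle list stood at 0.19, -0.24, -0.05 and -0.38 in A1G primary 1 to 4 and at 0.22, 0.19, 0.00 and 0.06 in Ptch1het 1 to 4. A1G primary 4 was lowest and A1G primary 1 lay among the Ptch1het arrays, so the groups overlapped. The difference of the means was -0.24 (SD 0.24 in A1G primary and 0.11 in Ptch1het), -0.34 without A1G primary 1, -0.15 without A1G primary 4 and -0.15 without both Ptch1het 1 and 2. The balance, differentiation minus cell cycle, was -0.46, 0.58, 0.30 and 1.24 in A1G primary tumours and -0.69, -1.40, 0.09 and 0.34 in Ptch1het tumours. A1G primary 1 and Ptch1het 1 and 2 held the proliferative end and A1G primary 4 the differentiated end, with the other 4 arrays between them. The mean balance differed by 0.83 between the genotypes and by 0.20 without both Ptch1het 1 and 2.

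**Figure D3:**
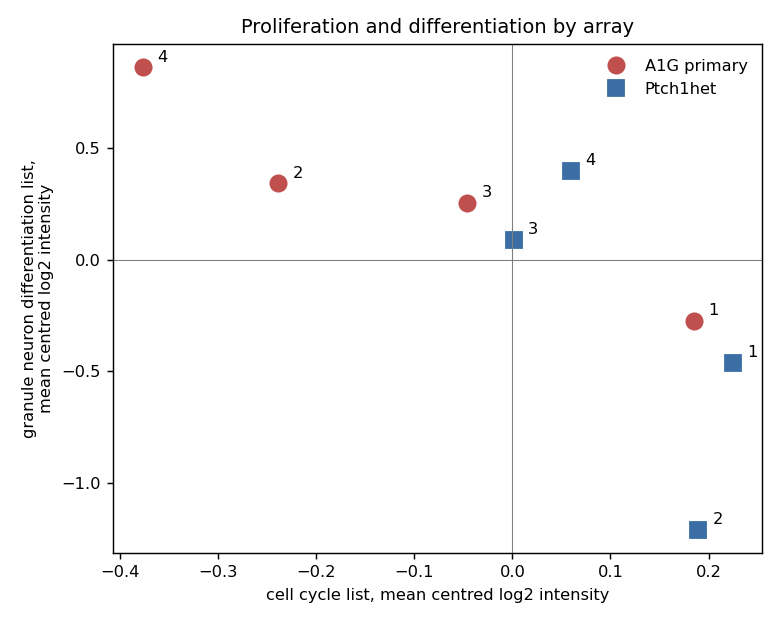
Mean centred log2 intensity of 39 cell cycle genes (x axis) and of 24 granule neuron differentiation genes (y axis) on the 4 A1G primary (red circles) and 4 Ptch1het (blue squares) arrays, numbered by replicate. A1G primary 1 lies beside Ptch1het 1, and A1G primary 4, at -0.38 and 0.86, and Ptch1het 2, at 0.19 and -1.21, mark opposite corners.

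Genes of oligodendrocyte precursors, glial cells that also occur in SHH tumours, included several of the larger differences. Gpr17, a receptor of differentiating precursors, read 10.66, 10.63, 10.32 and 10.54 in A1G primary tumours and 7.45, 9.69, 9.28 and 7.24 in Ptch1het tumours. The A1G primary arrays were uniform and Ptch1het 1 and 4 near background (difference 2.12, SE 0.59, adjusted p = 0.207). Sox10, the lineage factor of oligodendrocytes, read 12.08, 11.53, 11.37 and 11.76 in A1G primary tumours and 9.66, 10.59, 11.23 and 9.97 in Ptch1het tumours, also without overlap (1.32, 0.164). Sox10 belongs to the oligodendrocyte list below and is not counted among the precursor markers. Nkx2-2, a homeobox factor of oligodendrocyte specification, differed by 1.05 (0.315) and the matrix gene Matn4 by 1.21 (0.232), whereas Pdgfra, the growth factor receptor of precursors, differed by -0.01 and Olig2 by -0.20. Of 11 precursor markers, 8 were positive (median 0.38, 72.7% against 45.4% of all genes). The genotypes did not overlap for 2 of them, Gpr17 and Nkx2-2 (2.75% of all genes), and 5 had an unadjusted p under 0.05 (6.36% of all genes), all higher. Without both Ptch1het 1 and 2 the median was 0.52. Averaged per array, the list stood at 0.50, 0.29, -0.02 and 0.31 in A1G primary and at -0.19, -0.23, 0.07 and -0.73 in Ptch1het tumours, overlapping by A1G primary 3 and Ptch1het 3. Fewer cells of a type and less RNA per cell cannot be told apart in whole tumours. Of 10 tested oligodendrocyte genes 9 were positive (90%, against 45.4% of all genes, median 0.44), but 4 (median -0.04) without both Ptch1het 1 and 2. That list averaged 1.23, 0.05, -0.11 and -0.24 in A1G primary and -0.74, -0.53, 1.02 and -0.68 in Ptch1het tumours, so that Ptch1het 3 alone lay among the A1G primary arrays. Mbp, a main myelin protein gene, read 13.20 in A1G primary 1 and 13.03 in Ptch1het 3, and 8.30 to 10.42 on the other 6 arrays.

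Few relatives of the 3 firmest falls stood apart. Over all genes 0.0299% passed as lower, and 6.74% did not overlap in either direction. The lists were chosen with earlier results of these data known. Of 18 tested BCL2 family and apoptosis genes Hrk alone passed (median -0.07). The pore-forming Bax differed by -0.69 (adjusted p = 0.25), Bok by -0.42 (0.271) and the BH3-only Bid by -0.36 (0.361), and the BH3-only Bbc3 by 0.07 (0.912). Of 14 tested neuronal lineage factors Pou4f1 alone passed (median -0.15). Its relative Pou4f2 differed by -0.11 (0.777), Isl1, a partner in sensory neurons, by -0.53 (0.778) and Tlx3, a homeobox factor of excitatory neurons, by 0.75 without overlap (0.209). Of 10 tested peripheral sensory neuron markers Pou4f1 was again the one that passed (median -0.11). That list averaged -0.40, -0.14, -0.42 and 0.07 in A1G primary, -0.22, 0.33, 0.07 and 0.70 in Ptch1het and 2.67 to 3.85 in A1G metastatic tumours. The list includes Pou4f1 itself, so part of the difference between these A1G primary and Ptch1het averages is that of Pou4f1. A part of such cells in the Pou4f1 difference was not tested. Of 7 tested T-box genes Tbx4 alone passed, and Tbx6, a factor of paraxial mesoderm, differed by 0.80 without overlap (0.107).

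The 38 gene lists together covered 464 tested genes, and outside Hrk, Pou4f1 and Tbx4 none of them passed, against 0.0359% of all genes. List medians lay between -0.28 and 0.51 apart from erythroid cells (0.70, 3 genes) and sex-linked genes (-0.82, 5 genes). The median was 0.04 for markers of microglia and macrophages (16 genes), -0.05 for endothelium (13), -0.10 for meningeal fibroblasts (14) and 0.12 for astrocytes (12), against -0.03 over all genes.

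The spread within the genotypes was unequal. The median SD per gene was 0.22 in A1G primary and 0.26 in Ptch1het tumours, and 10509 genes (62.8%) had the larger SD in Ptch1het. An SD above 1 was found for 208 genes in A1G primary and 393 in Ptch1het tumours. Pairs of A1G primary arrays correlated at 0.967 to 0.984 across genes and pairs of Ptch1het arrays at 0.950 to 0.977, and pairs of different genotype at 0.933 to 0.976. Genes are not independent replicates, so these correlations describe the arrays only.

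Homeobox genes that assign position along the midbrain and hindbrain included several with wide spread within a genotype, and these are described for that spread. Of 14 tested, 5 had an SD above 1 in Ptch1het tumours, 2 of these also in A1G primary tumours, and 9 in neither. En1, an engrailed factor of the midbrain and cerebellum, read 6.97, 11.66, 11.80 and 11.49 in A1G primary tumours and 6.69, 6.46, 10.87 and 11.43 in Ptch1het tumours. It was at background in A1G primary 1 and Ptch1het 1 and 2 and high on the other 5 arrays. Otx1, an orthodenticle factor of granule progenitors, read 14.60, 14.18, 12.64 and 14.31 in A1G primary tumours and 9.81, 9.80, 14.40 and 14.60 in Ptch1het tumours, low in Ptch1het 1 and 2 alone. Otx2, its relative of the forebrain, midbrain and posterior cerebellum, read 10.24, 10.68, 12.03 and 8.28 in A1G primary tumours and 12.17, 12.47, 8.29 and 6.53 in Ptch1het tumours, with the highest levels in Ptch1het 1 and 2. Hoxb2, a factor of the hindbrain behind the cerebellum, read 11.75 in Ptch1het 2 and 6.85 to 7.42 on the other 7, and Hoxb4, of the posterior hindbrain, 9.01 and 5.90 to 6.72. As group differences these genes did not pass: adjusted p was 0.666 for En1, 0.469 for Otx1, 0.919 for Otx2 and 0.587 for Hoxb2.

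**Figure D4:**
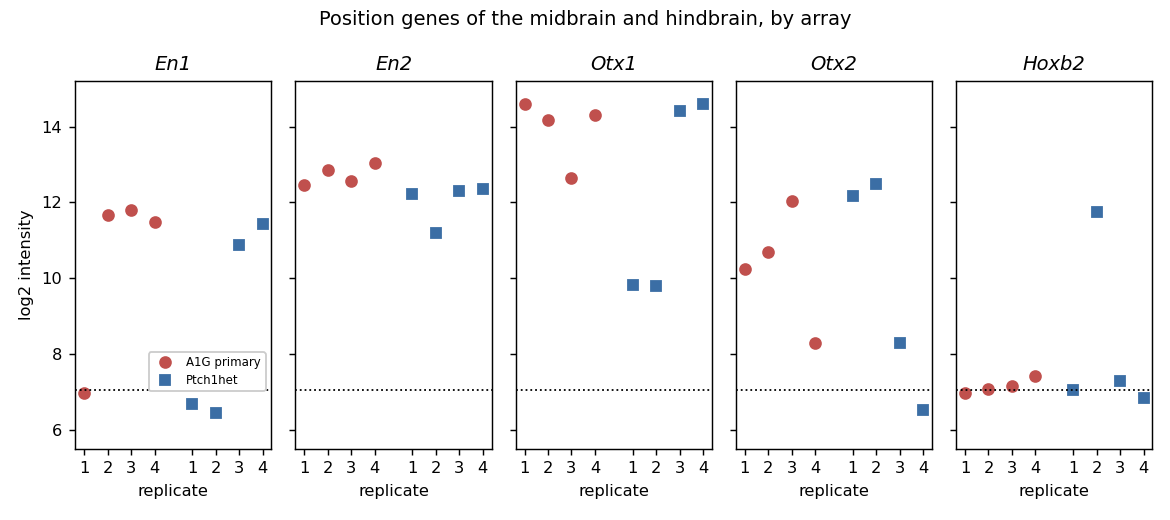
Log2 intensity of 5 position genes by replicate in A1G primary (red circles) and Ptch1het (blue squares) tumours, with the array median (7.05) dotted. En1 and Otx1 are low in Ptch1het 1 and 2 and high in Ptch1het 3 and 4, En1 is also low in A1G primary 1, and Hoxb2 is high in Ptch1het 2 only.

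Other genes of large spread also followed single tumours. In Ptch1het tumours Xlr4a, of an X-linked family with near-identical copies that 1 probe may not separate, read 13.75, 7.41, 10.90 and 13.70, against 7.46 to 8.77 in A1G primary tumours. Diras2, a Ras-like GTPase gene of the brain, read 10.44, 7.19, 12.42 and 13.18 in Ptch1het tumours, against 12.51 to 13.41 in A1G primary tumours. Ptch1het 2 was higher than all 7 others by over 1 for 87 genes and lower for 151, and the widest gap was in the renin gene Ren1, at 12.73 against 6.58 to 7.33. A1G primary 4 was highest by over 1 for 136 genes. Among these were the fast-muscle troponin gene Tnnc2, at 14.10 against 5.99 to 6.73, the neuropeptide precursor gene Vgf, at 12.10 against 7.32 to 8.42, and Rasgrp1, a Ras exchange factor gene, at 11.81 against 6.42 to 8.19. The calcium sensor gene Vsnl1 read 13.32 there and 8.70 to 9.96 in A1G primary 1 to 3, but 10.90 in Ptch1het 4, and Kndc1, a brain exchange factor gene, read 13.28 and 8.27 to 10.37, and 11.37 in Ptch1het 4. The glycolytic enzyme gene Eno2, used as a marker of mature neurons, read 13.06 in A1G primary 4 and 12.71 in Ptch1het 4. A1G primary 1 held the GABA transporter gene Slc32a1 at 9.69 against 5.74 to 7.94, and LOC666403, a transcript without a gene name here, at 14.89 against 10.01 to 10.91.

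Chromosome medians were compared after the values had been seen, for the 13384 tested genes with a chromosome. Chromosome 6 showed the widest difference between the genotypes. The median of its 719 genes, centred per gene over the 8 arrays, was 0.04, -0.16, -0.19 and -0.05 in A1G primary tumours and 0.16, -0.11, 0.14 and 0.20 in Ptch1het tumours. Ptch1het 1, 3 and 4 were above all A1G primary arrays and Ptch1het 2 was not, so the groups overlapped. The means differed by -0.19 (-0.23 for genes with a mean above 9). Of these genes 72.3% had a negative difference, 49 (6.82%) were lower without overlap, against 3.99% of all genes, and 2 (0.278%) were higher, against 2.75%; Tmem229a is 1 of the 719. Chromosome 17 stood at 0.26 in Ptch1het 1 and between -0.11 and 0.04 on the other 7 arrays, and chromosome 14, which holds Pou4f1, at 0.22 in Ptch1het 3 and between -0.08 and 0.05 on the others. Pou4f1 was high on all 4 Ptch1het arrays. DNA copy number was not measured.

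**Figure D5:**
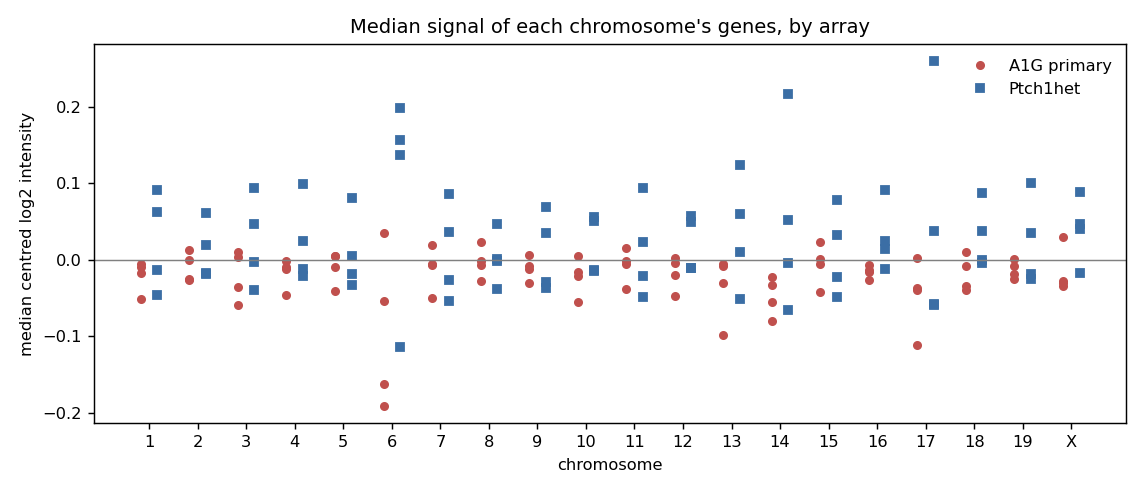
Median centred log2 intensity of the tested genes of each chromosome on the 4 A1G primary (red circles) and 4 Ptch1het (blue squares) arrays. Chromosome 6 lies at 0.14 to 0.20 in 3 Ptch1het tumours and at -0.19 to 0.04 in A1G primary tumours, while chromosomes 14 and 17 are raised in 1 Ptch1het tumour each.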

How the data were processed

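Tumour RNA was hybridized as biotinylated cRNA to Illumina BeadChips, per the labels' protocols. The values deposited by the authors are linear intensity for 45281 probes. The authors had equalized the arrays, as the medians of all 12 were 187.0 to 187.1, by a method not named in these sources, with background still in the values. Another deposited table holds 24 per-array columns, named by chip and position, that match no label and were not used; its annotation gave gene symbols and chromosomes.

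With limma 3.58.1 in R 4.3.3, background was corrected by normexp (offset 50), arrays were quantile normalized and log2 was taken. Probes above the array median on at least 4 of 12 arrays were kept, and the probe of highest mean stood for each gene. One model of 3 groups was fitted to all 12 arrays (lmFit, eBayes; 9 residual degrees of freedom), with Benjamini-Hochberg adjustment over 16724 genes and calls under 0.05. The fit was tested on simulated data. It treats all arrays as independent, although A1G primary and metastatic arrays of one number deviated together (correlations 0.17 to 0.45). The array number limits the precision. Chromosomes came from the deposited annotation for 10243 genes and from RefSeq for 3141.

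Genes were named by rule: called genes, the 10 largest separated differences each way, up to 4 members of smallest p per list, the 5 largest SDs per genotype and a fixed set of lineage genes. The members and lists were chosen with earlier results of these data known, and further genes of the lists, of the arrays that stood apart and of the chromosomes were named after their values were seen. Values are means of log2 intensity with the SD over 4 arrays; differences carry the model's SE. Detection filters and chip as a block could not be run. Sequences are from RefSeq, GRCm38.p6; the series gave no probe sequences here.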

Additional observations from a re-analysis of the deposited data

Results flagged for a closer look

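Of 164 sets of 4 arrays examined for a single distant array, 17 were picked out by Dixon's criterion. For sets not chosen by their values chance picks about 1 in 20. Here some genes were named for their large SD and some vary together, so the count is not comparable with that rate. A1G primary 1 was apart for LOC666403 (14.89, the others 10.03 to 10.14), Neurod1 (8.84, the others 9.62 to 9.71), Zic1 (13.77, the others 14.23 to 14.27) and the granule progenitor mean (-0.21, the others 0.17 to 0.24). LOC666403 was also high in metastatic replicate 1 (14.54) and at 9.59 to 10.22 in the other metastatic arrays. A1G primary 2 was apart for the Y-linked Eif2s3y (10.62, the others 6.12 to 6.29) and Kdm5d (8.55, the others 5.80 to 6.15), and for Barhl1 (12.91, the others all 12.56). A1G primary 3 was apart for Trpc1 (8.63, the others 7.47 to 7.63) and Cspg4 (8.45, the others 8.94 to 8.95), and A1G primary 4 for Vamp2 (12.73, the others 11.78 to 11.95).

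Among Ptch1het arrays, replicate 1 was apart for Adcyap1 (9.9997, the others 8.55 to 8.71) and Pcna (10.01, the others 9.43 to 9.50), and replicate 2 for En2 (11.18, the others 12.22 to 12.34) and Zic1 (13.76, the others 14.15 to 14.23). Replicate 4 was apart for Eif2s3y (5.84, the others 10.62 to 11.09), Kdm5d (6.39, the others 9.01 to 9.35) and Vgf (8.42, the others 7.35 to 7.41). Both arrays apart for Eif2s3y carry a sex-linked pattern common in the other genotype. The 6 called genes show no overlap between the genotypes on any array, so the place of these arrays in them was given by the calls. With Xist as a covariate Nat2 (adjusted p = 0.154) and Tmem229a (0.517) did not pass.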

How the results depend on the processing

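The count of 6 called genes was 3 when probes had to exceed the median on all 12 arrays (eGFP, Nat2 and Tmem229a; 12219 genes tested), 10 with an intensity trend in eBayes and 3 with a replicate block on the 8 arrays (eGFP, Hrk and Pou4f1), in which Tbx4 had an adjusted p of 0.0683. Same-numbered deviations of the genotypes correlated at 0.17, -0.01, 0.08 and 0.34. The same-numbered Ptch1het array was the best partner of A1G primary 3 and 4 but not of 1 and 2, so a pairing by number is not settled. A1G primary and metastatic arrays of one number correlated at 0.45, 0.17, 0.21 and 0.27. Each value was above the highest with another number (0.07, 0.14, -0.05 and 0.17). With A1G number as a random replicate block the same 6 genes passed. Leaving out single arrays gave 4 to 60 calls. The 60, 38 of them higher and all 6 among them, came without Ptch1het 4, and 10 without Ptch1het 2. The cause was not tested. eGFP, Hrk and Pou4f1 passed in every setting that tested them. Hrk and Pou4f1 were not tested when probes had to exceed the median on all 12 arrays, and Hrk met the main filter only through its high Ptch1het arrays. Without further correction of the deposited values, with offset 16, with cyclic loess and without a filter the 6 calls were the same genes. Of 1474 values of named genes under alternatives, 1449 kept their direction. Most of these genes were named by their values in the main fit and the alternatives reuse its arrays, so this count is no independent support. The lists' mean differences kept their sign throughout: cell cycle -0.34 to -0.15, differentiation 0.05 to 0.82 and their balance 0.20 to 1.12. Leaving out Ptch1het 1 and 2 together, the random block and the Xist covariate were added after seeing the data. Signal near background limits Hrk, Tbx4, Nat2, Tmem229a and the low end of Pou4f1.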
